A study of Rattus norvegicus with 3 samples.

Results

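Potassium channel genes were described here as the genes whose symbol starts with Kcn. The rule found 92 symbols on 93 rows among the 30957 genes of each library, since Kcnk6 stood on 2 rows. Messenger RNA had been sequenced from 3 male rats of the Sprague-Dawley strain, numbers 19, 35 and 70, and the tissue was the motor cortex. All had undergone cerebral ischemia and reperfusion, an interruption and later restoration of blood flow in the brain. All carry the time label 8 weeks, which the labels do not tie to age or to the operation. The rats form 1 group with no control analysed here, so the comparison is between the rats. With 1 rat on each side no test applies, and all that follows describes these 3 libraries. Values for 3 rats are in the order 19, 35 and 70 unless the rat is named.

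Potassium channels let potassium ions leave or enter a cell and so set its resting voltage, end its action potentials and limit its firing rate. Voltage-gated channels of the Kv families open on depolarization, calcium- and sodium-activated channels open when these ions build up inside the cell, inward rectifiers pass current most readily near rest, and tandem-pore channels carry a steady leak. Cortical neurons use nearly all of these families, astrocytes take up potassium through an inward rectifier, and microglia and pericytes carry channels of their own.

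The unit is FPKM, fragments per kilobase of gene and per 1000000 fragments, which can be set side by side between genes because it is per length. The low values, with an assumption on the length of short genes, gave an effective depth of 15560000, 16460000 and 16050000 fragments. The 3 libraries differed strongly in their cell type markers. The sum over 11 pan-neuronal markers was 2068, 128 and 2903 FPKM, and all 11 were lowest in rat 35. The sum over 10 astrocyte markers was 3537, 1212 and 2557 FPKM, and that over 8 oligodendrocyte markers 4395, 3654 and 5723 FPKM. All 10 microglia and macrophage markers were highest in rat 35 (938, 2691 and 730.3 FPKM in sum), as were 7 of 8 pericyte and smooth muscle markers (219.7, 437.2 and 128 FPKM) and 6 of 7 endothelial markers (179.6, 306.3 and 124.8 FPKM). All 7 fibroblast and meninges markers at a mean of 1 FPKM or more were highest in rat 35 as well (304.5, 2844 and 264.9 FPKM in sum), with the highest median deviation of any marker list in that rat (2.08 in log2(FPKM + 1), against 1.19 for microglia and macrophages). Every channel result below was measured in these same libraries, and the part that cell make-up has in it was not tested. In bulk tissue, fewer cells of a type and less RNA per cell cannot be told apart.

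Most potassium channel transcripts were scarce in rat 35. Of the 92 genes, 67 reached a mean of 1 FPKM or more over the 3 rats, 21 were above 0 but below this mean, and 4 were listed at 0 in every rat. The median of the 67 was 5.21, 0.86 and 7.81 FPKM. Counting single rats, 70, 32 and 66 channel genes reached 1 FPKM. Together the 92 genes took 0.091%, 0.031% and 0.198% of all FPKM in a library. The median deviation from the 3-rat mean, on the log2(FPKM + 1) scale that understates differences of low genes, was 0.28, -1.19 and 0.995 for the 67 genes and 0.02, 0.06 and -0.09 for all 14134 genes tested.

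The rat with the lowest value was 35 for 55 of the 67 genes, 70 for 10 and 19 for 2. Over all genes tested, these shares were 36.5% for rat 35, 44.2% for rat 70 and 19.3% for rat 19. Near ties count in full, such as Kcna1 on at least 186 and 185 fragments in rats 19 and 35. The highest value fell in rat 70 for 45 genes, in rat 19 for 14 and in rat 35 for 8, where all genes gave 29.8%, 24.8% and 45.4% for the same rats. The highest rat was over 2-fold above the lowest, as FPKM + 1, in 56 of the 67 genes, against 42.5% of all genes. Without rat 35, 27 of 69 genes were over 2-fold apart, against 11.1% of all genes. A gene that reached the mean of 1 FPKM through a single high rat had to differ between rats, so these counts describe the genes that passed and not all 92. In rat 35, the minimum estimate, by the shortest length that fits, is under 20 fragments for 18 of the 67, and their folds may be imprecise.

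**Figure D1:**
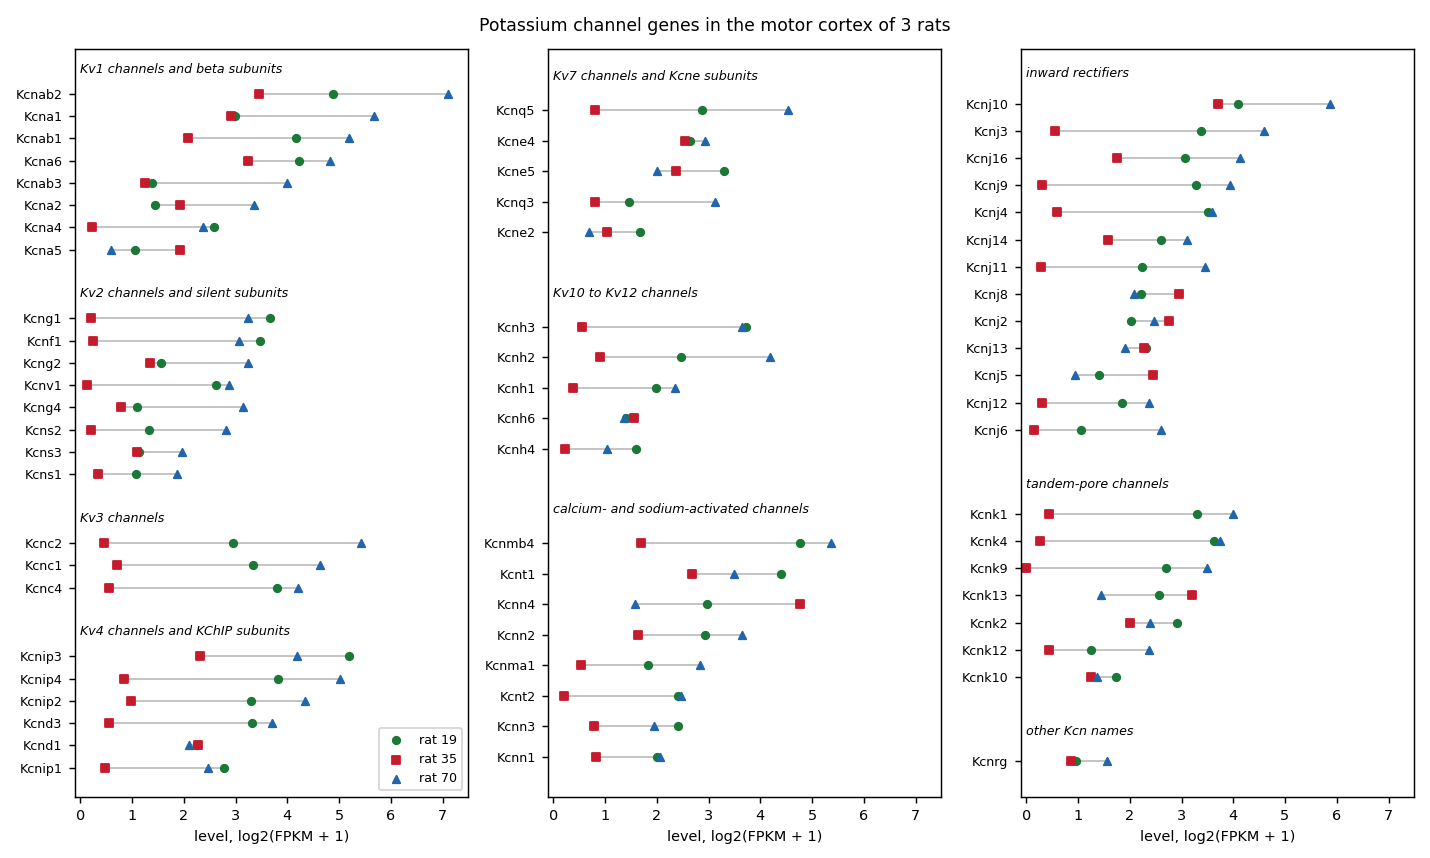
Level of 64 of the 67 potassium channel genes with a mean of 1 FPKM or more in each rat, as log2(FPKM + 1), grouped by class and sorted by mean. Circles, squares and triangles are rats 19, 35 and 70, and the grey line spans the 3. Squares lie at the left end for 52 genes and at the right end for 8.

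**Figure D2:**
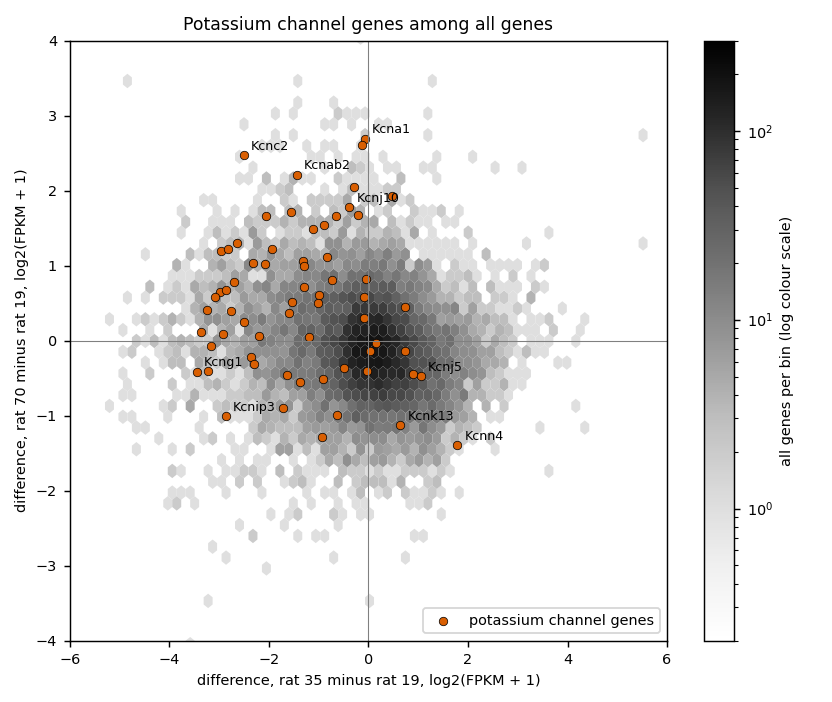
Difference of rat 35 from rat 19 (x axis) and of rat 70 from rat 19 (y axis), both in log2(FPKM + 1), for 64 of the 67 potassium channel genes (orange) over all 14134 genes (grey bins, log colour scale). Both axes share rat 19, and 4 genes lie beyond the axes. Most channel genes lie left of 0, and Kcnn4 lies farthest to the right.

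Kv1 channels sit along axons and at nerve endings, where they hold back repeated firing, and beta subunits bind them from inside the cell. In 6 of the 8 genes of this class rat 35 had the lowest value, and in 6 rat 70 had the highest. The beta subunit gene Kcnab2 had the highest mean of all potassium channel genes, with 28.6, 9.89 and 136 FPKM (58.2 ± 68.1, SD, n = 3). Kcna1, which encodes Kv1.1, was at 6.94, 6.52 and 50.3 FPKM. For Kcna1, rats 19 and 35 lay close together and rat 70 stood alone, although the pan-neuronal markers of rat 35 were far below those of rat 19. Kcnab3, another beta subunit gene, had the same shape with 1.61, 1.38 and 14.9 FPKM. Kcna2, which encodes Kv1.2, the frequent partner of Kv1.1, was at 1.71, 2.79 and 9.28 FPKM and so lowest in rat 19. Kcna6 (Kv1.6) differed least among the more abundant genes of the class, with 17.7, 8.45 and 27.5 FPKM. Kcna4, which encodes the rapidly inactivating Kv1.4, was at 5.01, 0.17 and 4.16 FPKM, nearly level in rats 19 and 70 and resting on at least 9 fragments in rat 35.

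Kv2 channels are delayed rectifiers of neuronal cell bodies, and the genes of the Kcnf, Kcng, Kcns and Kcnv groups encode silent subunits that carry no current alone and modify Kv2 channels. All 9 genes of this class at a mean of 1 FPKM or more were lowest in rat 35. Several silent subunits were close to 0 in rat 35. Kcng1 was at 11.6, 0.15 and 8.46 FPKM, a 75.1-fold range. Kcnf1 was at 10.1, 0.18 and 7.37 FPKM, and Kcnv1 at 5.16, 0.09 and 6.29 FPKM. In rat 35 these 3 genes rest on at least 7, 8 and 2 fragments, so their folds may be imprecise there. In rats 19 and 70 the smallest minimum behind any of them was 109. The fold of Kcnv1 is not given for that reason. Of the 3 Kcns genes, Kcns2 varied most, with 1.4999, 0.15 and 6.01 FPKM. Kcng2 and Kcng4 behaved differently, at 1.96, 1.55 and 8.44 FPKM for Kcng2 and 1.12, 0.73 and 7.81 FPKM for Kcng4, both standing out in rat 70 only, with rat 35 just below rat 19.

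Kv3 channels close very fast and let fast-spiking neurons, among them parvalbumin interneurons, fire at high rates. Kcnc1, Kcnc2 and Kcnc4 all had their lowest value in rat 35 and their highest in rat 70. Kcnc2 had 6.76, 0.37 and 42.0 FPKM, a 113-fold range and the largest SD of log2(FPKM + 1) among the 34 channel genes with a mean of 5 FPKM or more. Kcnc1 had 9.15, 0.63 and 23.9 FPKM. Kcnc4 had 12.9, 0.47 and 17.4 FPKM, so that rats 19 and 70 were closer for it than for Kcnc1 and Kcnc2. The parvalbumin gene Pvalb, at 17.8, 4.41 and 75.5 FPKM, had the same order of rats, as had 10 of 11 pan-neuronal markers. Of 9 inhibitory neuron markers, 5 were instead highest in rat 19. Pvalb had the highest rat 70 minus rat 19 of these 9 (2.02 in log2(FPKM + 1), against a median of -0.44). Kcnc1 stood at 0.51, 0.14 and 0.32 of Pvalb within the rats, lowest in rat 35. There Kcnc1 was under 1 FPKM and rests on at least 41 fragments, so this pair is left out of the ratios between partner genes below. The RefSeq promoter windows (GRCr8, 250 bases before to 50 after the gene start) of Kcnc1 and Kcnc2 are shown because these genes had the same order of rats. Capitals mark the GC box GGGCGG on either strand, which the window of Kcnc1 holds 3 times and that of Kcnc2 does not hold.
Kcnc1 (chr1:106038997-106039296, plus strand): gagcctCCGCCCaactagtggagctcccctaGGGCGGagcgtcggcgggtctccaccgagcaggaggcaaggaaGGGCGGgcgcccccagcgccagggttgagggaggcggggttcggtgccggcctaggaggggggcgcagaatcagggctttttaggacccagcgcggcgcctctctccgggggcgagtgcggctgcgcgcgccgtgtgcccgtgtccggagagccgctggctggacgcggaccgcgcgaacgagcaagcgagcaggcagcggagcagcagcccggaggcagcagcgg
Kcnc2 (chr7:49587364-49587663, plus strand): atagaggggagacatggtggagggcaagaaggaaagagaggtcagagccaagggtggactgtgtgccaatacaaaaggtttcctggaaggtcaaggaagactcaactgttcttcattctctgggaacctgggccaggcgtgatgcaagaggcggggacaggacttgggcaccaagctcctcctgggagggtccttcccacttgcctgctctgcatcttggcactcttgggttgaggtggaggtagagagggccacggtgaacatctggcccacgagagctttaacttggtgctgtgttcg

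Kv4 channels carry the A-type current of dendrites, and the KChIP proteins encoded by the Kcnip genes bind calcium and modify these channels. Of 6 genes, 5 were lowest in rat 35. Kcnip4 was at 13.1, 0.81 and 31.4 FPKM and Kcnip2 at 8.88, 0.97 and 19.3 FPKM. Kcnip3, which encodes a protein also known as a calcium-dependent repressor of transcription, was highest in rat 19 instead, with 35.4, 3.98 and 17.1 FPKM. Kcnd3, which encodes the pore subunit Kv4.3, was at 8.93, 0.47 and 12.02 FPKM, close in rats 19 and 70. Kcnd1 (Kv4.1) was the exception of the class, at 3.74, 3.83 and 3.29 FPKM, nearly level in the 3 rats. Kcnip1 (5.88, 0.40 and 4.53 FPKM) spans the locus of Kcnmb1 on the other strand. Kcnmb1 was at 0.19, 0.26 and 0.15 FPKM, and since no source used here says whether the counting was stranded, reads of this pair cannot be told apart.

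Kv7 channels of the brain, encoded by Kcnq genes, carry the M current, a slow brake on neuronal firing. Kcnq3 was at 1.76, 0.75 and 7.76 FPKM and Kcnq5 at 6.32, 0.75 and 22.2 FPKM. Rat 70 was highest and rat 35 lowest for both. Of the single-span Kcne subunits, Kcne4 had this order in a narrow range, at 5.21, 4.83 and 6.64 FPKM, whereas Kcne5 was highest in rat 19 with 8.87, 4.14 and 3.03 FPKM. Kcne2, which is known from mouse as a subunit of the choroid plexus epithelium, was also highest in rat 19 (2.21, 1.06 and 0.62 FPKM). The choroid plexus gene Ttr, at 33.1, 0.17 and 362 FPKM, had another order.

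The ether-a-go-go channels of the Kcnh genes shape repolarization and excitability. Kcnh2, which encodes the ERG channel, was at 4.52, 0.86 and 17.2 FPKM. Kcnh3, a channel of the forebrain, was at 12.1, 0.47 and 11.6 FPKM. Rat 35 was lowest for both, and rat 70 stood far above rat 19 for Kcnh2 while both were nearly level for Kcnh3. The locus of Kcnh3 overlaps Spats2 on the same strand (mean 16.3 FPKM), so its value may hold shared fragments. Kcnh1 was at 2.96, 0.30 and 4.11 FPKM. Kcnh6, a further ERG channel, was nearly level at 1.63, 1.94 and 1.57 FPKM.

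Calcium-activated channels of large conductance (BK) have the pore subunit gene Kcnma1 and, in neurons, the beta subunit gene Kcnmb4. Kcnmb4 was at 26.3, 2.23 and 40.0 FPKM and Kcnma1 at 2.57, 0.45 and 6.09 FPKM. The beta subunit transcript exceeded that of the pore in every rat, per length. The genes Kcnn1, Kcnn2 and Kcnn3 encode small conductance channels that contribute to the pause after a spike. All 3 genes were lowest in rat 35, with Kcnn2 at 6.605, 2.10 and 11.5 FPKM. Kcnt1, which encodes a sodium-activated channel, was highest in rat 19, with 19.99, 5.41 and 10.2 FPKM, and Kcnt2 was level in rats 19 and 70 (4.29, 0.15 and 4.51 FPKM). Kcnn4 ran against all of these and is described with the genes highest in rat 35.

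Inward rectifier genes did not share a single order of the rats, and of 13 genes 9 were lowest in rat 35, 3 in rat 70 and 1 in rat 19. The subunits Kcnj3, Kcnj6 and Kcnj9, which form channels opened by G proteins behind inhibitory receptors, were all lowest in rat 35. Kcnj3 was at 9.32, 0.47 and 23.0 FPKM and Kcnj6 at 1.08, 0.11 and 5.07 FPKM. Kcnj9 was at 8.77, 0.23 and 14.4 FPKM, where the value of rat 35 rests on at least 3 fragments. For all 3 genes rat 70 was highest and rat 35 close to 0. Kcnj4, which encodes Kir2.3, was at 10.3, 0.50 and 11.01 FPKM. Kcnj11, the pore gene of the neuronal channel closed by ATP, was at 3.69, 0.22 and 9.92 FPKM, and its partner Abcc8 at 3.92, 0.50 and 11.4 FPKM. Both had the same order of rats. Kcnj12 (2.58, 0.23 and 4.14 FPKM) and Kcnj14 (5.04, 1.98 and 7.56 FPKM), further rectifiers of the Kir2 family, followed it as well.

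Kcnj10 encodes Kir4.1, through which astrocytes take up potassium and which oligodendrocytes also carry. It was at 16.1, 12.1 and 57.8 FPKM (28.7 ± 25.3, SD, n = 3), with rat 70 alone at a high level. Its partner Kcnj16 (Kir5.1) was at 7.34, 2.37 and 16.4 FPKM. Among astrocyte markers, Slc1a2, a glutamate transporter gene, had the same order (43.1, 30.1 and 120 FPKM), whereas the water channel gene Aqp4 was highest in rat 19 and lowest in rat 70 (113, 54.6 and 16.9 FPKM). Kcnj10 was therefore at 0.14, 0.22 and 3.41 of Aqp4 within the rats. Kcnj9 and Kcnj10 are neighbours on chromosome 13, transcribed away from each other, at 90703036 to 90710287 and 90723092 to 90752581 (Rnor 6.0), with 12.8 kb between them. In rat 35, Kcnj9 was close to 0 while Kcnj10 kept a level near that of rat 19. Their RefSeq promoter windows are shown because genes so near each other had such unequal values. Capitals again mark GGGCGG on either strand, present 2 times for Kcnj10 and not for Kcnj9.
Kcnj9 (chr13:87320244-87320543, minus strand): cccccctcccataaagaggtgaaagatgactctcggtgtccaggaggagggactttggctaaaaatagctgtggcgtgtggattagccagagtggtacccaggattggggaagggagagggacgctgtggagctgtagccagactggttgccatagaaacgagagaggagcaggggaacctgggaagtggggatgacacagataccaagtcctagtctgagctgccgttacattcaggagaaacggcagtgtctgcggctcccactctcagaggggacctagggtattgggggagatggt
Kcnj10 (chr13:87334260-87334559, plus strand): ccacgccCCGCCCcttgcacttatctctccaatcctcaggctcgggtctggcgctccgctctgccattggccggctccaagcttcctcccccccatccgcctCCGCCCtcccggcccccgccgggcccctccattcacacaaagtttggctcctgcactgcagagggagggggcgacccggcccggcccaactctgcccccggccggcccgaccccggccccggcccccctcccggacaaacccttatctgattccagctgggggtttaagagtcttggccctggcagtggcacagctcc

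Of 7 tandem-pore channel genes, 6 were lowest in rat 35 and 1, Kcnk13, in rat 70. Kcnk1 was at 8.87, 0.36 and 14.8 FPKM and Kcnk4, which encodes the mechanically gated TRAAK channel, at 11.3, 0.20 and 12.4 FPKM. Kcnk9, which encodes the acid-sensitive TASK-3, was at 5.52 FPKM in rat 19 and 10.2 in rat 70 and was listed at 0 in rat 35. An exact 0 can be a failed estimate in these files, where Hprt1 and Rps6, genes of every cell, were listed at 0 in all rats. Kcnk9 also overlaps Trappc9 on the same strand (mean 9.22 FPKM). Kcnk2, which encodes TREK-1 and is known in neurons and astrocytes, differed less, with 6.49, 3.00 and 4.23 FPKM, and Kcnk10 (TREK-2) was at 2.31, 1.37 and 1.57 FPKM. Kcnk12 (THIK-2), at 1.39, 0.35 and 4.18 FPKM, was highest in rat 70.

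The 8 genes at their highest in rat 35 were Kcnn4, Kcnk13, Kcnj8, Kcnj2, Kcnd1, Kcnj5, Kcnh6 and Kcna5. Kcnn4, which encodes the intermediate conductance calcium-activated channel of microglia, macrophages and lymphocytes, was at 6.84, 26.0 and 1.98 FPKM (11.6 ± 12.7, SD, n = 3). It rests on at least 275, 1107 and 82 fragments. Kcnk13, which encodes the microglial leak channel THIK-1, was at 4.93, 8.22 and 1.72 FPKM. Both genes had rat 35 highest, rat 19 between and rat 70 lowest. The microglial marker Aif1 had this order too, with 46.9, 103 and 9.92 FPKM, as did the lysosomal marker Cd68 with 60.9, 468 and 42.9 FPKM. T cell markers were low, at 4.17, 7.54 and 1.57 FPKM in sum over 3 genes, with Cd3d listed at 0 in rat 70.

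Kcnj8 encodes Kir6.1, the pore of the ATP-closed channel of brain pericytes and smooth muscle, and Abcc9 encodes its sulfonylurea receptor. Kcnj8 was at 3.66, 6.71 and 3.23 FPKM and Abcc9 at 4.45, 8.71 and 3.60 FPKM. The ratio of the pair was 0.82, 0.77 and 0.897, the steadiest of the 5 pairs in which both genes reached 1 FPKM in every rat (log2 ratio -0.27 ± 0.11, SD, n = 3). Of 8 pericyte and smooth muscle markers, 7 were highest in rat 35, by unequal amounts. Pdgfrb was at 21.8, 102 and 18.4 FPKM and Vtn at 17.9, 20.9 and 11.7 FPKM. Tagln was highest in rat 19 (78.05, 67.9 and 27.8 FPKM). Kcnj5, a G protein-gated subunit best known from the heart, was at 1.64, 4.47 and 0.91 FPKM, an order opposite to those of Kcnj3, Kcnj6 and Kcnj9. Kcna5, which encodes Kv1.5, was at 1.07, 2.82 and 0.52 FPKM and differed in this from Kcna1 and Kcna6, which lie within 200 kb of it on chromosome 4. Kcnj2, which encodes the strong rectifier Kir2.1, was at 3.06, 5.75 and 4.56 FPKM, and Kcnj16, 47.5 kb away on chromosome 10, had its lowest value in rat 35.

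**Figure D3:**
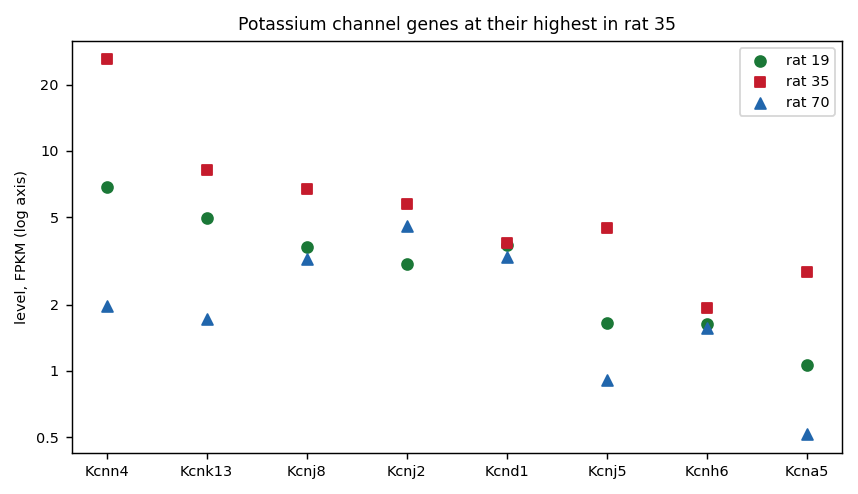
Level in FPKM (log axis) of the 8 potassium channel genes whose highest value was in rat 35, sorted by mean. Circles, squares and triangles are rats 19, 35 and 70. Kcnn4 spans 1.98 to 26.0 FPKM, while Kcnd1 and Kcnh6 hardly differ.

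Among the 34 genes with a mean of 5 FPKM or more, those with the smallest SD of log2(FPKM + 1) were Kcne4 (0.20), Kcne5 (0.67), Kcna6 (0.80), Kcnt1 (0.86) and Kcnn2 (1.02). Among those with a large SD were Kcnc2 (2.49), Kcnip4 (2.14), Kcnj3 (2.07) and Kcnc1 (2.01). Kcnj13, which encodes Kir7.1 of the choroid plexus, was also nearly level at 3.94, 3.87 and 2.73 FPKM below this mean, but its locus overlaps Gigyf2 on the other strand (mean 11 FPKM).

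Rats 35 and 19 were closer in 48 channel genes than in any pan-neuronal marker, but neuron subtype markers had wider ranges. On the log2(FPKM + 1) scale, rat 35 minus rat 19 ranged from -4.87 (Snap25) to -2.33 (Nefm) over the 11 pan-neuronal markers, with a median of -3.81. Of the 67 channel genes, 19 lay within this range, 48 above it and none below it, with a median of -1.38. Those within it included Kcng1 and Kcnj3, and those above it Kcna1, Kcnj10 and Kcne4. Against 7 excitatory neuron markers (-4.62 to -1.43), 33 channel genes lay within the range and 34 above it, and against 9 inhibitory neuron markers (-3.80 to -0.24), 51 lay within it and 16 above it. This scale limits the difference of low genes, and 35 of the 67 were under 1 FPKM in rat 35. With a pseudocount of 0.1 FPKM, chosen after seeing the data, 24 lay within the range of the markers, 39 above it and 4 below it (Kcnf1, Kcng1, Kcnk4 and Kcnk9).

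**Figure D4:**
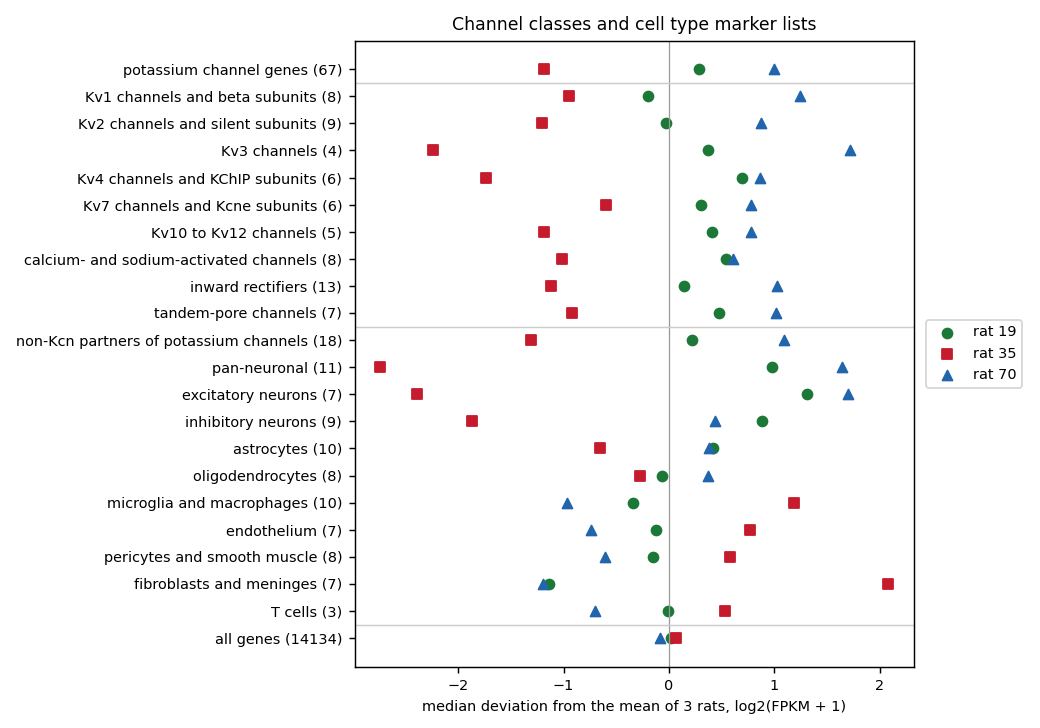
Median over the genes of a set (number with a mean of 1 FPKM or more in parentheses) of the deviation from the 3-rat mean in log2(FPKM + 1), for all potassium channel genes, their classes, partner and cell type marker lists, and all genes. Circles, squares and triangles are rats 19, 35 and 70. Rat 35 is lowest in every channel class, with all channel genes at -1.19, and highest for microglia, endothelium, pericytes, T cells and, at 2.08, fibroblasts and meninges.

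Rats 19 and 70, which both had abundant neuronal transcripts, also differed in channel genes. In 23 of the 67 genes rat 70 was over 2-fold above rat 19, as FPKM + 1, against 4.84% of all genes, and in 4 genes rat 19 was over 2-fold above rat 70, against 6.11% of all genes. The 23 included 5 of 8 Kv1 and beta subunit genes, Kcnc1 and Kcnc2, Kcnq3 and Kcnq5, and 5 of 13 inward rectifier genes, among them Kcnj10 and Kcnj16. The 4, on the same scale, were Kcne5, Kcnip3, Kcnk13 and Kcnn4. The pan-neuronal markers differed between these rats too, by -0.86 (Tubb3) to 2.20 (Nefm) as rat 70 minus rat 19 in log2(FPKM + 1), with a median of 0.63, and the median of the 67 channel genes was 0.52. Of the 67 channel genes, 57 lay within the range of these markers, 4 above it and 6 below it. Among excitatory neuron markers the highest difference was 3.45 (Slc17a6), and 0 of the 67 lay above it. The part of neuronal content in these differences was not tested.

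Genes outside the Kcn names whose proteins assemble with or anchor potassium channels, or form the related HCN channels, were also lowest in rat 35 in most cases. Of 21 listed, 18 reached a mean of 1 FPKM. Of these 18, 15 were lowest in rat 35, against 36.5% of all genes, and 13 highest in rat 70, against 29.8%. Over 2-fold apart were 16, against 42.5% of all genes. Dpp6, which encodes a subunit of Kv4 channels, was at 38.2, 5.09 and 96.0 FPKM, and Lgi1, a secreted protein that acts on Kv1 channels, at 22.2, 0.89 and 44.2 FPKM. Hcn2 was at 16.3, 7.75 and 65.7 FPKM. The 3 not lowest in rat 35 were lowest in rat 70: Abcc9, the scaffold gene Dlg1 (24.6, 21.8 and 18.0 FPKM) and Lrrc55, which encodes a BK channel subunit (3.44, 3.26 and 1.84 FPKM).

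Ratios within a rat do not depend on how a library was scaled. Kcna1 exceeded Kcna2 by 4.06-fold, 2.34-fold and 5.42-fold (log2 ratio 1.89 ± 0.62, SD, n = 3). Kcnab2 exceeded Kcna2 by 16.7-fold, 3.54-fold and 14.7-fold (3.25 ± 1.24), and Kcnj10 exceeded Kcnj16 by 2.20-fold, 5.09-fold and 3.52-fold (1.77 ± 0.61). Rat 35 thus had the lowest ratio for both Kv1 pairs and the highest for the glial pair. Both Kv1 pairs are divided by Kcna2, so they are not separate observations. The ratio of Kcnj10 to Aqp4 varied most (-1.07 ± 2.48).

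**Figure D5:**
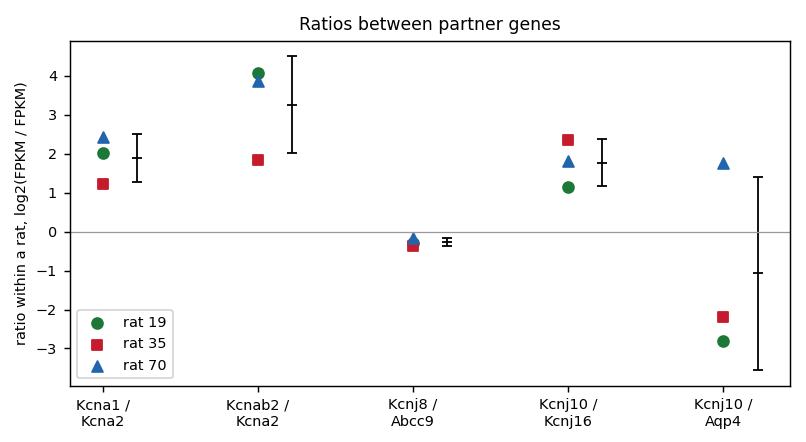
Ratio between partner genes within a rat, as log2 of FPKM over FPKM, for the 5 pairs with both genes at 1 FPKM or more in every rat. Circles, squares and triangles are rats 19, 35 and 70, and the black bar is the mean with its SD over 3 rats. Kcnj8 over Abcc9 hardly moves, and Kcnj10 over Aqp4 changes sign in rat 70.

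Of the 92 genes, 61 had a promoter window in the RefSeq table, all on the chromosome that the files give, and 44 of these belong to the 67. The windows had a median GC content of 60.7% and 13 CpG, against 51.7% and 7 over all 33469 windows. The GC box GGGCGG, on either strand, stood in 30 of 61 (49.2%), against 33.1% of all windows, and the TATA box TATAAA in 2 (3.28%), against 14.2%. GAGGAAGT, a PU.1-like site, stood in 3 windows (4.92%, against 2.42% of all), those of Kcnj14, Kcnj2 and Kcnj5. TTCAGCACC, the left arm of the RE1 element, stood in 1 (1.64%, against 0.356%), that of Kcnh6, and the E-box CACGTG in 3 (4.92%, against 6.42%). TGANTCA, the AP-1 site, stood in 3 (4.92%, against 7.33%) and TGACGTCA, the cyclic AMP element, in none (against 1.83%). None of these motifs overlaps another in the windows printed here, and a match is a description of letters only.

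The 25 genes below a mean of 1 FPKM add little. Kcna10, Kcnk6, Kcnk18 and Kcnmb3 were listed at 0 in all rats. The other 21 had means between 0.0056 and 0.98 FPKM, and the highest single value was 1.36 FPKM (Kcnk16 in rat 19). Kcnb2, which encodes Kv2.2, was at 1.19, 0.06 and 1.21 FPKM and Kcnh7 at 0.39, 0.04 and 0.80 FPKM, both lowest in rat 35. Kcnk3 (TASK-1), at 1.32, 0.53 and 1.09 FPKM, fell just short of the mean of 1 FPKM, and Kcnh4, at 2.04, 0.16 and 1.07 FPKM, just reached it. Kcnrg, in no class, was at 0.96, 0.83 and 1.93 FPKM on at least 12, 11 and 25 fragments. Counting all 88 genes above 0 in any rat, 64 were lowest in rat 35, 54 highest in rat 70 and 13 highest in rat 35, against 34.9%, 29.4% and 41.3% of the 19403 genes of the libraries above 0 in any rat.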

How the data were processed

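Messenger RNA of 3 rats of 1 group was measured, 1 library each. The values the authors deposited are FPKM per Ensembl gene; per the labels' design text, a Perl script calculated them from normalized fragment counts. No source used here gives the normalization. Per the submitters' processing notes, which give no roles, StringTie 1.3.0, HISAT2 2.0.4 and genome build Rnor 6.0 were used. Different animal numbers were taken as separate animals, and the SD is the spread between these samples.

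FPKM was used as deposited (Python 3.11.15, pandas 2.3.3, numpy 2.4.6) on the log2(FPKM + 1) scale over genes averaging at least 1 FPKM. A single group allows no test. Relative depth was read from genes under 0.2 FPKM. Their ratios between rats lay within 0.5% of ratios of whole numbers up to 8 in 88.5% to 90.4% of cases. Absolute depth came from short genes, on the assumption that their whole span was counted, and 51.4% of their values gave whole fragments (within 0.005). Fragments behind a value use the shortest gene length giving whole fragments (within 0.005) in all rats, found for 66 of 66 channel genes above 0 in every rat at a mean of 1 or more (3 of 66 after random changes), and are minima. The functions were tested on simulated data. The members, classes, pairs, marker lists and the rule for named genes (top 3 by mean per class, the 15 largest and 5 smallest SD, genes against the trend, pairs) were chosen with earlier results of these data known. Other genes were named for comparison after their values were seen, as were the motifs and the windows shown. Kcnd2 was not analysed here, and 3 of the 67 genes are counted but not reported singly. Promoter windows are from RefSeq (GRCr8), matched by symbol.

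The alternatives were a pseudocount of 0.1 FPKM, mean minima of 0.5, 5 or none, rescaling to a sum of 1000000 with and without mitochondrial genes, median-of-ratios scaling, and leaving out each rat.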

Additional observations from a re-analysis of the deposited data

How the results depend on the processing

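Direction and approximate size of most summary values held under the alternatives. The number of channel genes lowest in rat 35 was 55 of 67 as deposited, against 36.5% of all genes. It was 59 of 71 after rescaling to 1000000 (38% of all genes) and 55 of 67 under median-of-ratios scaling (39.7%). Rescaled without mitochondrial genes it was 62 of 74, against 46.1% of all genes. At a mean of 5 FPKM or more, 34 genes remained. Of these, 33 were over 2-fold apart, against 40.9% of all genes, and 32 were lowest in rat 35, against 36.8%. Of the 34, 0 were lowest in rat 19, 2 lowest in rat 70, 27 highest in rat 70, 6 highest in rat 19 and 1 highest in rat 35. In 15, rat 70 was over 2-fold above rat 19. Other shares of all genes were not computed at a mean of 5 FPKM or more. At that minimum, the median deviation was 1.21 for Kv2 and silent subunit genes in rat 19 and -2.13 for tandem-pore genes in rat 35. With no minimum, 13 of 88 genes were highest in rat 35, against 41.3% of all genes. Lowest in rat 70 were 18, for which the share of all genes was not computed. The Kv7 and Kcne class was then at 0.049 in rat 70.

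Leaving out each rat in turn, 53 of 65 genes were over 2-fold apart without rat 19, 27 of 69 without rat 35 and 41 of 61 without rat 70. The shares of all genes were 37.2%, 11.1% and 26% in the same order, so all genes also had their lowest share without rat 35. Without rat 19, 55 of 65 genes were lowest in rat 35, against 43.5% of all genes, and 10 in rat 70. Without rat 70, 52 of 61 were lowest in rat 35, against 46.35% of all genes, and 9 in rat 19. Without rat 35, 47 of 69 were lowest in rat 19 and 22 in rat 70, and the share of all genes was not computed for this pair. The median deviation in rat 19 was -0.31 to 1.02 for the Kv2 class and -0.49 to 0.399 for the Kv7 class. For all channel genes in rat 19 it went from 0.28 to -0.25 without rat 35. Sign changes there also came for Kv3 (0.37 to -0.67), Kv4 (0.69 to -0.06), inward rectifier (0.14 to -0.26) and calcium- and sodium-activated genes (0.54 to -0.03). Kcnh genes in rat 70 went from 0.78 to -0.02 without rat 35, and Kv1 genes in rat 19 from -0.20 to 0.28 without rat 70. For tandem-pore genes in rat 70, the median deviation was 1.02 as deposited. It was 0.0995 at a minimum of 0.5 FPKM, 0.0535 with no minimum and 0.204 and 0.211 under the rescalings to 1000000. It changed sign without rat 35 (-0.075) and was 0.97 without rat 19. With 2 rats left, their deviations mirror each other and describe a single pair. No paired analysis was possible because the rats form 1 group. The depth of 15560000 to 16460000 fragments leaves a minimum estimate under 20 fragments behind 18 of the 67 genes in rat 35, and the cause of differences between settings was not tested.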
